A study of Mus musculus with 9 samples.

Results

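Neurotransmitter release depends on a small set of proteins that pull vesicle and plasma membranes together. VAMP1 or VAMP2 on the vesicle, syntaxin 1 (Stx1a) and SNAP-25 (Snap25) on the plasma membrane zipper into the SNARE complex, complexins (Cplx1, Cplx2) bind the assembled bundle and control when it fuses, and alpha-SNAP (Napa) recruits the ATPase NSF (Nsf), which takes spent complexes apart for reuse. PV INs, the fast-spiking basket and axo-axonic cells of the hippocampus, release GABA with high speed and precision through this machinery, and complexin 2 is best known from excitatory terminals whereas complexin 1 is prominent in inhibitory neurons.

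The SNARE fusion genes described here are these 8, chosen by name from the 37620 gene identifiers in the count files, and all 8 were found and passed the filter on low counts. RNA was sequenced from CA3/CA2 of PV-Cre mice carrying Rpl22 with a floxed HA tag, so that ribosomes of Cre-expressing cells carry the tag and can be immunoprecipitated with their RNA. All animals, controls included, were 2-month-old males and females of this genotype that had received a lentivirus in the dentate gyrus (DG) 2 weeks before. The virus expressed a non-target shRNA (shNT, 5 samples) or an shRNA against Ablim3, a brake on mossy fiber contacts with PV INs (shRNA, 4 samples), and each sample pooled 6 mice. The comparison asks which ribosome-associated RNAs of PV INs change when mossy fiber input onto them is increased. In such bulk samples, fewer PV INs and less RNA per PV IN cannot be told apart, and RNA of other cells can be carried along in the immunoprecipitate.

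Between 18281719 and 34578837 reads per sample were counted on genes, and the 8 genes had between 839 and 262489 reads in any sample, so counting error was small beside the spread between samples. Markers of PV INs were present in every sample, with a summed level over 12 genes of 5332 to 8755 CPM (reads of a gene per 1e+06 counted reads, TMM-normalized) in shNT samples and 3130.4 to 7653 CPM in shRNA samples. Reads outside annotated exons made up 9.76% to 18.6% of uniquely aligned reads in the shNT samples and 12.4% to 27.2% in the shRNA samples, with shRNA replicate 4 highest and shNT replicate 2 far above the other controls. shRNA replicate 4 also held 5776 CPM of 10 astrocyte markers and 642 CPM of 8 endothelial markers, against at most 1706 and 268 CPM in any other sample. The sample names fall into a set called YTa31 (3 shNT and 3 shRNA samples) and a set called YTa32 (shNT replicates 4 and 5 and shRNA replicate 4), and what these sets stand for is not given in the labels. Ablim3, which the virus targets in DG cells, differed little in this RNA of CA3/CA2 (log2 fold change 0.13, FDR = 0.701, edgeR quasi-likelihood test), which does not measure its knockdown in DG.

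VAMP1 with VAMP2 and complexin 1 with complexin 2 are close paralogues, so it matters whether a 50-base read could be counted for the wrong gene. The coding sequences of Cplx1 and Cplx2 are both 405 bases long and identical at 323 positions (79.8%), and those of Vamp1 and Vamp2 are identical at 74.6% of 358 aligned positions. The longest run of bases that both complexin genes share is 32 bases, and for the Vamp pair it is 18 bases, both shorter than a read. These stretches of coding sequence (GENCODE transcripts of mm9, 5′ to 3′) show the longest shared run of each pair in capitals, flanked by up to 30 bases on each side in lower case.
Cplx1: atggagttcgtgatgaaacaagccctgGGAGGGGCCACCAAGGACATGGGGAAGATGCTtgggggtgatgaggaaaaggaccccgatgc
Cplx2: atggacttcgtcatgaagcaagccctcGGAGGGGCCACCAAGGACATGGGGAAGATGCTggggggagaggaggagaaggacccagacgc
Vamp1: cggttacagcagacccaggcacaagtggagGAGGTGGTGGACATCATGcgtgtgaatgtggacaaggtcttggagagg
Vamp2: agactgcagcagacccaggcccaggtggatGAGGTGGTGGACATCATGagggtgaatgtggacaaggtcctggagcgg

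The complexin run crosses the junction of exons 2 and 3 in both genes, at chr5:108977525-108977528 and chr5:108954559-108954586 on the minus strand in Cplx1, and at chr13:54480060-54480063 and chr13:54480176-54480203 on the plus strand in Cplx2. The Vamp run likewise crosses from exon 2 to exon 3, at chr6:125168716-125168718 and chr6:125168929-125168943 in Vamp1 and at chr11:68902726-68902728 and chr11:68903233-68903247 in Vamp2, both on the plus strand. For Napa and its paralogue Napb the longest shared run was 26 bases. No 50-base stretch of coding sequence occurred in both genes of any of these 3 pairs, and no exon of the 8 genes overlapped an exon of another counted gene on either strand.

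Snap25, Vamp1, Vamp2 and Cplx1 had lower mean levels in shRNA than in shNT samples, and for these 4 genes the highest shRNA value was under the lowest shNT value. Cplx2 lay the other way, with a higher mean in the shRNA samples and overlapping groups, and Stx1a and Nsf had almost equal means. None of these differences passed: 0 of the 8 genes were called by the quasi-likelihood test of edgeR (Benjamini-Hochberg FDR under 0.05 over 15069 genes and 1.5-fold or more), against 1.75% of all genes tested, 1.74% higher and 0.0133% lower. An unadjusted p under 0.05 was found for 5 of the 8, 4 lower and 1 higher, against 34.1% of all genes (13.4% lower). Groups did not overlap in 4 of the 8, all with shRNA lower, against 15.6% of all genes in either direction and 6.68% with shRNA lower. A negative log2 fold change was found in 6 of the 8 and in 42.1% of all genes. The number called was also 0 with edgeR's likelihood ratio test, its exact test and its version 4 quasi-likelihood test, which called 14.8%, 14.6% and 2.63% of all genes. DESeq2 called 2 of the 8 (Snap25 and Cplx1) and 15.7% of all genes. With limma voom, run throughout with quality weights per sample, 2 of the 8 (Cplx1 and Cplx2) and 19.4% of all genes were called. At an FDR under 0.05 alone, DESeq2 also passed Vamp2 (20.3% of all genes), and limma voom also passed Snap25, Vamp1 and Vamp2 (38.7% of all genes), all at less than 1.5-fold. The median log2 fold change of the 8 genes was -0.41, beside 0.11 over all genes tested.

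**Figure D1:**
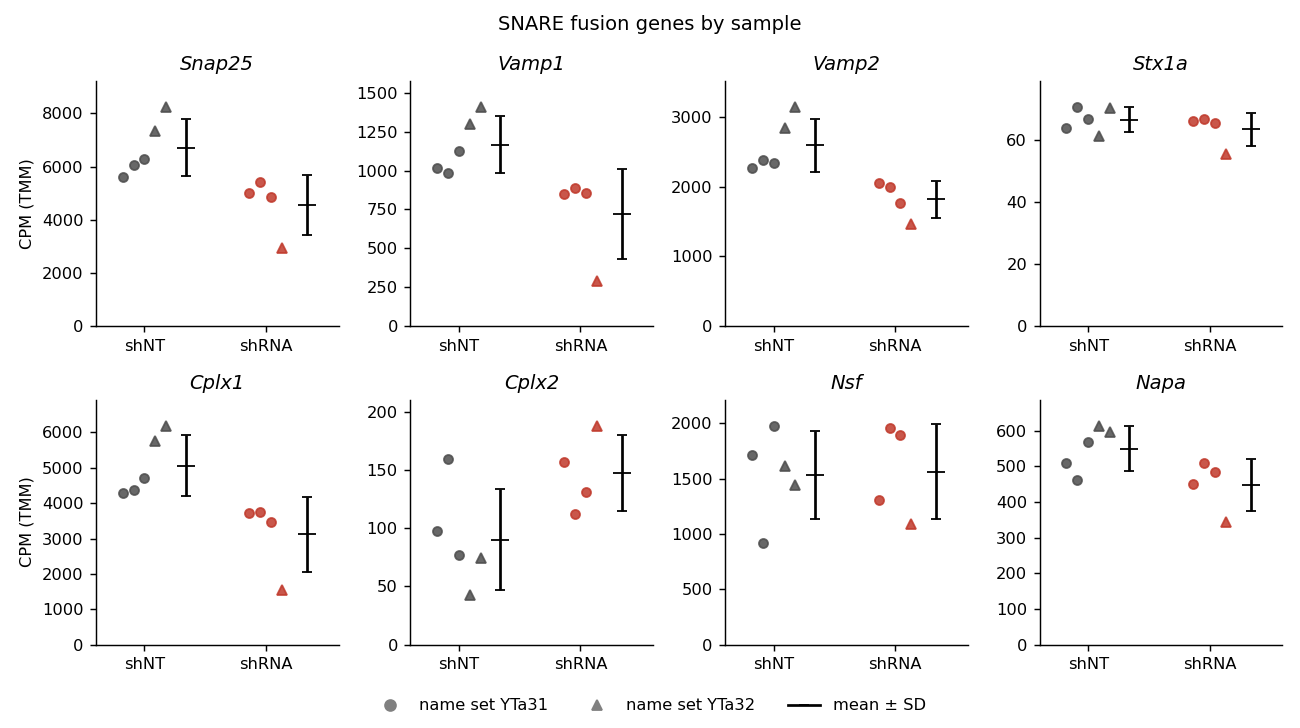
Normalized level (CPM, TMM) of the 8 SNARE fusion genes in each sample, with shNT in grey, shRNA in red, circles for the YTa31 and triangles for the YTa32 set of sample names, and the group mean ± SD in black. In Snap25, Vamp1, Vamp2 and Cplx1 all 4 shRNA samples lie below all 5 shNT samples, and shRNA replicate 4 is the lowest of all.

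Vamp1 and Vamp2 encode synaptobrevins 1 and 2, the SNAREs of the synaptic vesicle. Vamp1 (ENSMUSG00000030337, mm9 chromosome 6 from 125165569 to 125194561) had 1019, 985, 1123, 1302 and 1407 CPM in the 5 shNT replicates, given in order, against 848, 891, 853 and 287 CPM in the 4 shRNA replicates. The first 3 shRNA samples were thus close together just under the control range, and shRNA replicate 4 was far below them. shNT averaged 1167 ± 182 (SD, n = 5) and shRNA 719.7 ± 289 CPM (SD, n = 4), which put the log2 fold change at -0.70 with an SE of 0.30 (FDR = 0.131 by the edgeR quasi-likelihood test), and without shRNA replicate 4 it was -0.45. Vamp2 (ENSMUSG00000020894, chromosome 11 from 68901992 to 68905886) had 2259, 2379, 2335, 2838 and 3136.5 CPM with shNT and 2047, 1993, 1769.9 and 1464 CPM with shRNA. Its groups were separated as well, without a sample that stood far from the rest. shNT averaged 2589.5 ± 381 (SD, n = 5) and shRNA 1818 ± 265 CPM (SD, n = 4), which put the log2 fold change at -0.51 with an SE of 0.19 and the lowest FDR of the 8 genes, 0.0946 (edgeR quasi-likelihood test). With DESeq2 Vamp2 passed the FDR threshold (FDR = 0.0172) at -0.56, short of 1.5-fold.

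The ratio of Vamp1 to Vamp2 reads within a sample, which does not depend on how libraries are scaled, was 0.451, 0.414, 0.481, 0.459 and 0.449 in the shNT samples and 0.414, 0.447, 0.482 and 0.196 in the shRNA samples. It lay between 0.414 and 0.482 in 8 of the 9 samples, and shRNA replicate 4 was the exception. The log2 ratio differed by -0.31 between groups (exact two-sided permutation test, p = 0.222, adjusted p = 0.444 over 4 ratios), and without shRNA replicate 4 the difference was -0.011.

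Snap25 and Stx1a encode the plasma membrane partners. Snap25 (ENSMUSG00000027273, chromosome 2 from 136539189 to 136608164) had 5597, 6059, 6299.6, 7351 and 8234 CPM with shNT and 5008, 5438, 4846 and 2928 CPM with shRNA. Here too the groups did not overlap, with a gap between 5438 and 5597 CPM. shNT averaged 6708 ± 1068 (SD, n = 5) and shRNA 4555 ± 1113 CPM (SD, n = 4), which put the log2 fold change at -0.56 with an SE of 0.23 (FDR = 0.119 by the edgeR quasi-likelihood test). With DESeq2 its FDR was 0.0323 at a log2 fold change of -0.61. Stx1a (ENSMUSG00000007207, chromosome 5 from 135499352 to 135526970) had 63.7, 70.5, 66.6, 61.2 and 70.2 CPM with shNT and 66.1, 66.7, 65.2 and 55.5 CPM with shRNA. The first 3 shRNA samples lay inside the control range and shRNA replicate 4 below it. At averages of 66.4 ± 4.05 (SD, n = 5) in shNT and 63.4 ± 5.31 CPM (SD, n = 4) in shRNA, Stx1a had the narrowest interval of the 8 genes, its log2 fold change being -0.067 with a 95% interval from -0.32 to 0.19 (unadjusted, from the edgeR fit; FDR = 0.696).

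Cplx1 and Cplx2 differed between groups in opposite directions. Cplx1 (ENSMUSG00000033615, chromosome 5 from 108947573 to 108979043) had 4298, 4362, 4721, 5751 and 6190.0 CPM with shNT and 3720.3, 3738, 3480.2 and 1547 CPM with shRNA. As in Vamp1, 3 shRNA samples were close together under the control range and shRNA replicate 4 was far lower. shNT averaged 5064 ± 857 (SD, n = 5) and shRNA 3121 ± 1056 CPM (SD, n = 4), which put the log2 fold change at -0.70 with an SE of 0.27 (FDR = 0.106 by the edgeR quasi-likelihood test). Cplx1 passed with DESeq2 (FDR = 0.0310) and with limma voom (FDR = 0.00668, log2 fold change -0.59).

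Cplx2 (ENSMUSG00000025867, chromosome 13 from 54472713 to 54485278) had 97.2, 159.9, 77.3, 42.3 and 74.6 CPM with shNT and 157, 112, 131 and 188 CPM with shRNA. The shRNA samples were above 4 of the 5 controls, and shNT replicate 2 lay among them. shNT averaged 90.2 ± 43.6 (SD, n = 5) and shRNA 147 ± 32.9 CPM (SD, n = 4), which put the log2 fold change at 0.71 with an SE of 0.31 (FDR = 0.138 by the edgeR quasi-likelihood test). Without shNT replicate 2 it was 1.02 (FDR = 0.0576, edgeR quasi-likelihood test), and with limma voom 1.00 with an FDR of 0.00631. Without shNT replicate 4, the lowest control, it was 0.44 (FDR = 0.322, edgeR quasi-likelihood test). Only 0 to 2 reads per sample were counted for Cplx4, and Cplx3 was near the filter, with 1.09 ± 0.702 (SD, n = 5) with shNT and 1.58 ± 0.369 CPM with shRNA (SD, n = 4).

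Reads of Cplx1 exceeded those of Cplx2 by a factor of 44.2, 27.3, 61.1, 135.9 and 83.0 in shNT replicates 1 to 5 and of 23.6, 33.3, 26.5 and 8.22 in shRNA replicates 1 to 4. The groups overlapped in shNT replicate 2 and shRNA replicate 2 alone. The log2 ratio was 5.93 ± 0.880 (SD, n = 5) with shNT and 4.35 ± 0.895 (SD, n = 4) with shRNA, a difference of -1.58 (exact permutation test, p = 0.0317), which did not pass after adjustment over the 4 ratios (adjusted p = 0.127). Without shRNA replicate 4 the difference was -1.14 (exact permutation test, p = 0.0714). Within the YTa31 set of names it was -0.61 (exact permutation test, 3 against 3, p = 0.2), where so few samples cannot give a p under 0.05.

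Markers of excitatory neurons were also mostly higher in the shRNA samples. The summed level of 10 such markers, among them Slc17a7, Camk2a and Prox1, was 775 to 1721 CPM in the shNT samples. It was 1775 to 2203 CPM in the shRNA samples, without overlap. Of the 10 markers, 9 had a positive log2 fold change and 2 were called, Grik4 and Tbr1 (edgeR quasi-likelihood test). The authors report Tbr1 as raised within PV INs, by qPCR as well. The sum was lowest in shNT replicate 4, which also had the least Cplx2 and the highest Cplx1 to Cplx2 ratio. The order differed in other samples. shNT replicate 1 had 1721 CPM of these markers and 97.2 CPM of Cplx2, against 1544 and 159.9 CPM in shNT replicate 2. Among the shRNA samples, replicate 3 had the highest sum, 2203 CPM, and replicate 4 the most Cplx2. All 12 PV IN markers had a negative log2 fold change (0 called, 8 of the 12 at between -0.25 and -0.38), Pvalb the most at -0.92 (FDR = 0.0678, edgeR quasi-likelihood test). All 10 astrocyte and all 8 oligodendrocyte markers had positive values (0 called), with summed levels of 1099 to 1568 and 775 to 2406 CPM in the shNT samples and 1444 to 5776 and 1470.2 to 3059 CPM in the shRNA samples. The 8 endothelial markers summed to 79.2 to 268 and 48.6 to 642 CPM, and the 8 microglial markers to 69.8 to 124 and 107 to 123 CPM, with 7 and 5 positive. No marker list was at 0 in any sample, and the part of these other cells in the levels of the SNARE fusion genes was not tested.

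**Figure D2:**
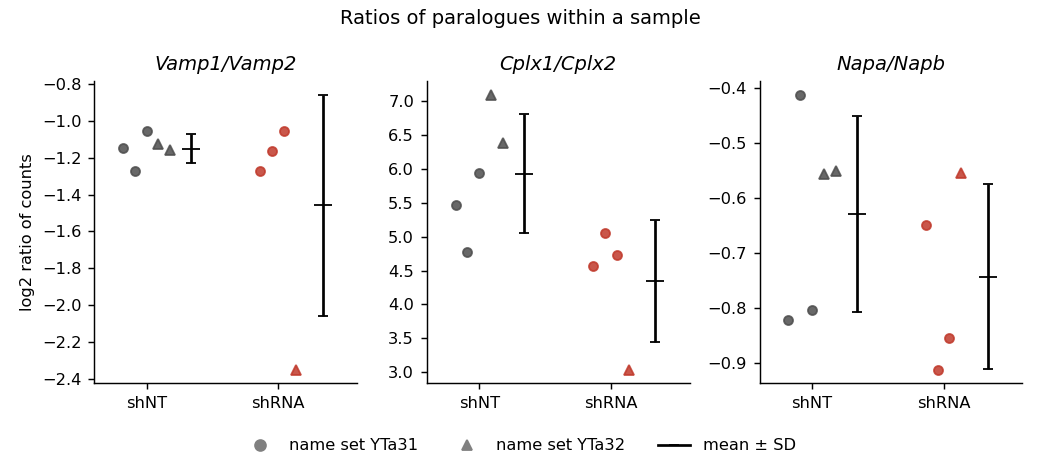
Log2 ratio of the reads of 2 paralogues in each sample (vertical axes differ and do not start at 0), with shNT in grey, shRNA in red, circles for the YTa31 and triangles for the YTa32 set of sample names, and the mean ± SD in black. Vamp1/Vamp2 is flat apart from shRNA replicate 4 at -2.35, whereas Cplx1/Cplx2 is lower in most shRNA samples.

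NSF and its adaptor differed less between the groups. Nsf (ENSMUSG00000034187, chromosome 11 from 103683096 to 103815370) had 1716, 915, 1977, 1614 and 1446 CPM with shNT and 1310.4, 1957, 1890.4 and 1088 CPM with shRNA. Both groups spanned nearly the same range, and the lowest value was that of the control shNT replicate 2. shNT averaged 1534 ± 396 (SD, n = 5) and shRNA 1561 ± 429 CPM (SD, n = 4), which put the log2 fold change at 0.026 with a 95% interval from -0.54 to 0.59 (unadjusted, edgeR; FDR = 0.952). Napa (ENSMUSG00000006024, chromosome 7 from 16683807 to 16703324) had 509.9, 461, 569, 614 and 596 CPM with shNT and 451, 509, 484 and 343 CPM with shRNA. These groups overlapped through shRNA replicates 2 and 3. shNT averaged 549.9 ± 63.6 (SD, n = 5) and shRNA 447 ± 73.2 CPM (SD, n = 4), which put the log2 fold change at -0.30 with an SE of 0.17 (FDR = 0.226 by the edgeR quasi-likelihood test).

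Beta-SNAP, the brain form of the adaptor, is encoded by Napb, which had 857 ± 143 (SD, n = 5) with shNT and 761 ± 201 CPM with shRNA (SD, n = 4). Its log2 fold change was -0.17 (FDR = 0.593, edgeR quasi-likelihood test), and the log2 ratio of Napa to Napb differed by -0.11 between groups (exact permutation test, p = 0.357, adjusted p = 0.476).

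**Figure D3:**
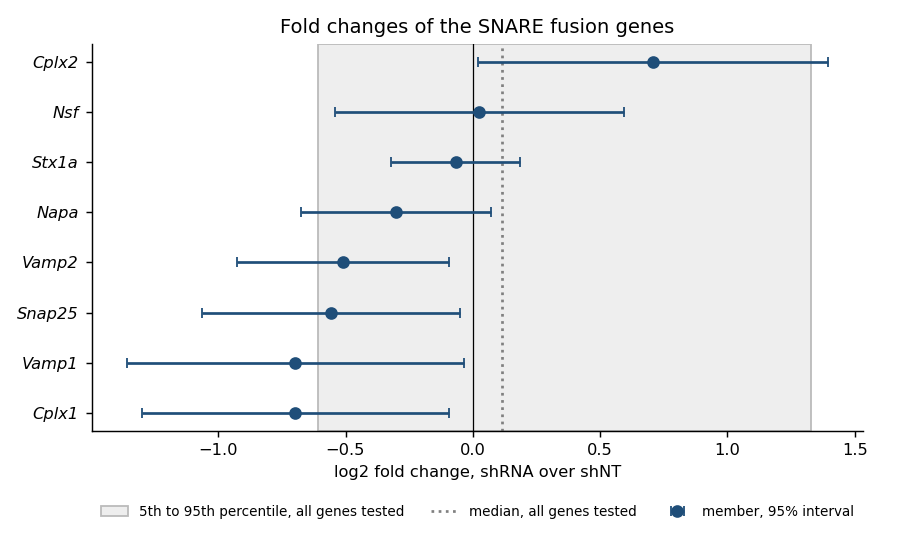
Log2 fold change (shRNA over shNT) of each SNARE fusion gene as a point with its unadjusted 95% interval from the edgeR fit, over the 5th to 95th percentile of all genes tested in grey and their median as a dotted line. Cplx1 and Vamp1 are lowest at -0.70, Cplx2 is highest at 0.71, and Nsf and Stx1a lie near 0.

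These differences were also looked at by set of sample names. Both sets hold controls. Among the shRNA samples, any part of the sets cannot be told apart from that of shRNA replicate 4, the only one named YTa32. In the YTa31 samples alone, 3 against 3, the groups of Snap25, Vamp1, Vamp2 and Cplx1 again did not overlap: Snap25 ran from 5597 to 6299.6 CPM with shNT and from 4846 to 5438 CPM with shRNA, and Cplx1 from 4298 to 4721 and from 3480.2 to 3738 CPM. The log2 fold changes were smaller there, at -0.27 for Snap25, -0.30 for Vamp1, -0.30 for Vamp2 and -0.33 for Cplx1, with FDR values from 0.480 to 0.504 (edgeR quasi-likelihood test), and Cplx2 was at 0.22. The YTa32 set holds the 2 highest controls of all 4 genes and the lowest shRNA sample, and with 1 shRNA sample it gives no test of its own. With the set as a term in the fit the log2 fold changes were -0.57 for Snap25, -0.79 for Vamp1, -0.49 for Vamp2, -0.74 for Cplx1 and 0.73 for Cplx2, and 0 of the 8 genes passed.

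The share of reads outside exons was higher in shRNA replicates 1 and 4 (19.8% and 27.2%) than in any control. In shRNA replicates 2 and 3 (12.5% and 12.4%) it lay inside the control range. With that share as a covariate the log2 fold changes were -0.34 for Snap25, -0.34 for Vamp1, -0.40 for Vamp2, -0.40 for Cplx1 and 0.33 for Cplx2, with FDR values from 0.140 to 0.376 (edgeR quasi-likelihood test). In the same fit Nsf was at 0.44 (FDR = 0.116, edgeR quasi-likelihood test), its highest value under any alternative, Napa at -0.099 and Stx1a at -0.029. Without shRNA replicate 4, which had the largest share, the log2 fold changes were -0.41 for Snap25, -0.45 for Vamp1, -0.44 for Vamp2, -0.49 for Cplx1 and 0.53 for Cplx2.

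The 8 genes differed in how they varied over the 9 samples. Each level was centred on the gene's own mean of log2 CPM, and the distance between 2 genes was taken as the root mean square difference over the samples. Vamp1 and Cplx1 were the closest pair, at 0.11 on the log2 scale, followed by Snap25 and Vamp2 at 0.13. Snap25 lay 0.16 from Cplx1 and Napa 0.16 from Vamp2. The pattern was not confined to the fusion genes: Pvalb lay 0.25 from Cplx1, 0.28 from Snap25, 0.32 from Vamp1 and 0.33 from Vamp2. Vamp1 and Vamp2 themselves lay 0.38 apart. Nsf was 0.31 from Napa and at least 0.37 from every other member, and it was nearer to Napb at 0.17, which like Nsf was low in both shNT replicate 2 and shRNA replicate 4. Cplx2 was far from all the other members, at 0.66 from Stx1a and 1.17 from Vamp1. The excitatory marker Slc17a7 was nearer to Cplx2 than any member was, at 0.40, whereas Gad1 and Pvalb were farther from it than Stx1a. Stx1a varied least, with a root mean square of 0.10 around its mean against 0.63 for Vamp1 and 0.64 for Cplx2. These distances are descriptions over 9 libraries, which share depth and composition between genes.

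**Figure D4:**
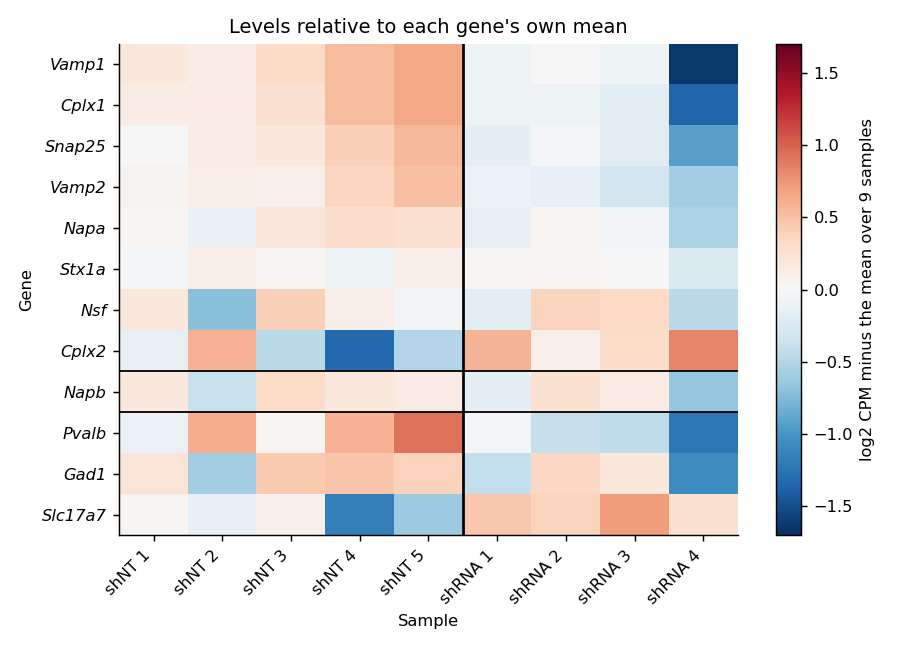
Log2 CPM of each gene minus its mean over the 9 samples (colour), with the SNARE fusion genes on top, the paralogue Napb in the middle and Pvalb, Gad1 and Slc17a7 for comparison below; the line separates shNT from shRNA samples. Vamp1, Cplx1, Snap25 and Vamp2 share a pattern with shRNA replicate 4 lowest, and Cplx2 runs opposite. shRNA replicate 4 is also lowest in Pvalb and Gad1, and Nsf and Napb dip in shNT replicate 2 as Gad1 does.

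Per length the machinery was not evenly represented. In the shNT samples the level was 2314 ± 391 CPM per kb of exon for Cplx1, 988 ± 157 for Snap25, 679.8 ± 99.9 for Vamp2, 184 ± 47.4 for Nsf, 145 ± 16.8 for Napa, 133 ± 20.8 for Vamp1, 24.9 ± 1.52 for Stx1a and 18.3 ± 8.85 for Cplx2 (CPM per kb, SD, n = 5). Cplx1 had the 3rd highest value of the 15047 genes with a length, Snap25 the 25th and Vamp2 the 46th. The order from Cplx1 over Snap25 and Vamp2 to Nsf held in each of the 5 shNT and 4 shRNA samples, whereas the ranges of Nsf, Napa and Vamp1 overlapped between neighbours, as did those of Stx1a and Cplx2. Stx1a was above Cplx2 in 4 of 5 shNT samples but in 1 of 4 shRNA samples. The order depends in part on the length used: divided by the longest coding transcript, Snap25 with 3170.2 ± 505 CPM per kb (SD, n = 5) exceeded Cplx1 in all 9 samples, and Vamp1 with 388 ± 60.6 exceeded Napa with 218 ± 25.2 in all 5 shNT samples.

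Together the 8 genes took 1.54% to 1.95% of gene counts in the shNT samples and 0.958% to 1.40% in the shRNA samples, with no overlap, and most of this came from Snap25, Cplx1 and Vamp2. This sum is a description of the genes above and not a further result.

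Genes around the core complex were taken as 5 lists. The 14 regulators of SNARE assembly and priming included the Munc13 proteins (Unc13a, Unc13b, Unc13c), which open syntaxin, and the CAPS proteins of dense core vesicle priming. In this list 12 of 14 had a positive log2 fold change, with a median of 0.88, and in 7 all shRNA samples lay above all shNT samples (8.97% of all genes tested). The test called 1, Cadps2, which rose by 1.31 on the log2 scale (FDR = 0.0433 by the edgeR quasi-likelihood test), with 10.9 ± 4.35 (SD, n = 5) for shNT and 27.1 ± 2.88 CPM for shRNA (SD, n = 4). Without shRNA replicate 4 Cadps2 kept a log2 fold change of 1.22 but missed the threshold (FDR = 0.0754, edgeR quasi-likelihood test).

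Unc13a had 97.3, 78.2, 83.5, 54.9 and 68.6 CPM with shNT and 113, 112.9, 132.5 and 152 CPM with shRNA. The groups did not overlap, and its log2 fold change was 0.74, just short of the threshold (FDR = 0.0530 by the edgeR quasi-likelihood test). Unc13c had the largest value of the list, 1.92, at a low level of 1.07 ± 0.783 and 4.05 ± 1.26 CPM (SD, n = 5 and 4; FDR = 0.0544, edgeR quasi-likelihood test). Stxbp6 was lowest in the list, at -0.18.

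Other SNAREs of the plasma membrane and their vesicle partners gave 0 calls among the 10 genes tested, with a median log2 fold change of 0.13 and 6 positive (Vamp7 had no identifier of that name). Snap23, the ubiquitous relative of SNAP-25, had 4.32 ± 1.25 (SD, n = 5) with shNT and 8.05 ± 4.73 CPM with shRNA (SD, n = 4) (log2 fold change 0.90, FDR = 0.116, edgeR quasi-likelihood test), with 14.6 CPM in shRNA replicate 4. Stx2 was highest in the list at 0.97 and Snap47 lowest at -0.34, and Vamp3, the cellubrevin of non-neuronal cells, was at 0.35. The list of complexin and SNAP paralogues had 0 calls among 3 genes, from Cplx3 at 0.54 to Napg at -0.31.

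Endosomal and Golgi SNAREs leaned the other way, with 13 of 18 negative, a median log2 fold change of -0.32 and 0 called. Stx8, a late endosomal SNARE, was lowest: it had 59.0 ± 10.4 (SD, n = 5) with shNT and 38.4 ± 6.93 CPM with shRNA (SD, n = 4), without overlap (log2 fold change -0.62, FDR = 0.0630, edgeR quasi-likelihood test). Stx5a, of the Golgi, was highest at 0.38.

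Vesicle proteins outside the SNARE complex had 11 of 17 negative, a median of -0.16 and 1 call. Sv2b, a vesicle glycoprotein, had 69.5, 50.6, 79.7, 33.997 and 44.9 CPM with shNT and 96.4, 144.6, 167 and 146 CPM with shRNA. It rose without overlap by 1.31 on the log2 scale (FDR = 0.0403, edgeR quasi-likelihood test), and without shRNA replicate 4 it was at 1.28 and missed the threshold (FDR = 0.0515, edgeR quasi-likelihood test). Rab3b was the lowest of this list, at -0.59 with 718 ± 138 and 478 ± 159.98 CPM (SD, n = 5 and 4; FDR = 0.140, edgeR quasi-likelihood test). The sum of excitatory markers, which was higher without overlap, stands beside Cadps2 and Sv2b too, and its part in them was not tested. Without both shNT replicate 2 and shRNA replicate 4 they were at FDR values of 0.0377 and 0.0352 (edgeR quasi-likelihood test).

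**Figure D5:**
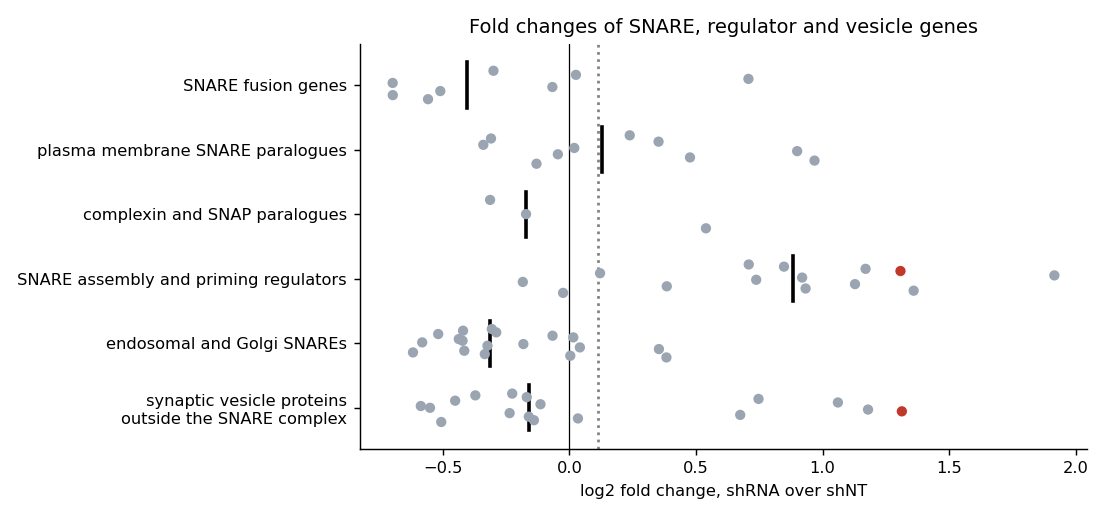
Log2 fold change (shRNA over shNT) of each tested gene in the SNARE fusion set and the 5 related lists, with called genes in red, list medians as black bars and the median over all genes tested as a dotted line. Assembly and priming regulators lie mostly to the right, with a median of 0.88, and the SNARE fusion genes mostly to the left, at -0.41, and the 2 red points are Cadps2 and Sv2b.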

How the data were processed

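The authors aligned reads to the transcriptome of mm9 with STAR, counted them per gene without strand with HTSeq 0.6.0 and deposited the raw counts of each sample, along with reads outside exons. The annotation used is not given in the sources used here. Names, exons and coordinates came from GENCODE vM1 of the same build, which named 37205 of 37620 identifiers. Libraries were made with the SMARTer v4 kit. Tools and build are also named in the submitters' processing notes. By the authors' mouse numbers each pool held its own mice. Nothing says whether pools are independent cohorts, so p-values measure the spread between these samples.

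A gene was tested if any 1 sample reached 1 CPM, which left 15069 genes. Counts were normalized with TMM and tested in R 4.3.3 with edgeR 4.0.16 (glmQLFit at its default, the version 3 method). Condition was the only term, and calls were made at an FDR under 0.05 and 1.5-fold. Alternatives used DESeq2 1.42.0 and limma 3.58.1 (voom with quality weights per sample). The test was checked on simulated counts, which held no outlying sample and no difference between name sets. Standard errors are the log2 fold change over the root of F. Ratios used an exact permutation test, adjusted over 4 ratios, and 1 ratio and some genes of the lists are not reported here. Reported genes were the 8 members, fixed paralogues and the highest and lowest gene of each list, the 3 genes nearest each member in pattern, Pvalb and Ablim3, other genes being named after their values were seen, and the members and lists were chosen with earlier results of these data known.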

Additional observations from a re-analysis of the deposited data

Results flagged for a closer look

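In 26 groups of values (each SNARE fusion gene, each ratio and the share of reads outside exons, in shNT and in shRNA samples), 4 values stood far from the rest of their group by Dixon's criterion, which chance passes in about 1 in 20 groups (1.3 of 26). They came from 2 samples, 3 of them from shRNA replicate 4, so they are not independent of each other. shRNA replicate 4 had 287 CPM of Vamp1, against 848 to 891 CPM in the other 3 shRNA samples. It had 1547 CPM of Cplx1, against 3480.2 to 3738 CPM. It had 55.5 CPM of Stx1a, against 65.2 to 66.7 CPM. Among the controls, shNT replicate 2 had 18.6% of uniquely aligned reads outside exons, against 9.76% to 11.3% in the other 4.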

How the results depend on the processing

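The number of the 8 SNARE fusion genes called was 0 under 24 of 26 alternatives, including each sample left out in turn (0 to 0), and 2 with DESeq2 and 2 with limma voom. The fit without shNT replicate 5 is in this and later counts again, as the comparison for the replicate block. The 26 also hold the main fit without a fold minimum. Genes called among all tested numbered 264, and 2230 with the likelihood ratio test, 2193 with the exact test, 2363 with DESeq2, 2919 with limma voom, 397 with edgeR's version 4 test (added after seeing the data), 515 with no filter, 680 without shNT replicate 2 and shRNA replicate 4, and 0 to 1417 with each sample left out. They numbered 0 with library size only, upper quartile, filterByExpr, YTa31 alone or the share outside exons as a covariate (1493 to 5360 at an unadjusted p under 0.05 in the 11 edgeR fits with 0 calls). With the replicate number as a block, which the data do not show to pair the samples (1 of 8 samples correlated best with its own number, and deviations of same-numbered samples correlated at -0.27, -0.64, 0.49 and -0.18), 34 genes and 0 of the 8 were called, against 0 genes in the same 8 samples without the block. In the 5 related lists 2 genes were called, 13 with DESeq2, 0 with library size only and 0 without shRNA replicate 4.

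The signs of Snap25, Vamp1, Vamp2, Cplx1, Cplx2 and Napa held under all 25 alternatives fitted. Nsf changed sign, to -0.015 with DESeq2 or its size factors, -0.012 with no filter, -0.030 with filterByExpr, -0.031 with the name set, -0.080 with the replicate block, -0.068 in the same samples without it, and from -0.15 to 0.16 with each sample left out, and Stx1a to 0.017 with limma voom and 0.022 without shNT replicate 2 and shRNA replicate 4 (-0.17 to -0.029 with each sample left out). Minus a trend of fold change with exon length, log2 fold changes were -0.99 for Snap25, -1.22 for Vamp1, -0.76 for Vamp2, -0.76 for Cplx1, 0.38 for Cplx2, -0.55 for Napa, -0.20 for Stx1a and -0.48 for Nsf. Other causes were not tested. Without shRNA replicate 4 the FDR was 0.184 for Snap25, 0.149 for Cplx1 and 0.160 for Vamp2, each higher than with it. At 839 or more reads per sample for each of the 8 genes, counting error was small.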

Other observations

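The genes whose pattern over the 9 samples came closest to each SNARE fusion gene were sought among the 9495 genes averaging at least 10 CPM, by the root mean square difference of centred log2 CPM. For Snap25 they were Gabarapl1, Nsg1 and Sult4a1, at 0.032 to 0.033 where the median gene lay at 0.42. For Vamp2 they were 4933433P14Rik, Oaz2 and Muted at 0.044 to 0.049, and for Napa Psmf1, St3gal5 and Rnf185 at 0.037 to 0.042. Cplx1 was closest to Cygb, Tpi1 and Ap1s2 at 0.047 to 0.063, and Vamp1 to Igfbp4, Tmem35 and Ap1s2 at 0.088 to 0.11, so Ap1s2 was among the nearest of both. Ncam2 and Slc39a6 were among the closest to Nsf, at 0.047 and 0.049, and Stx1a to Picalm, Trmt6 and 1700106N22Rik at 0.058 to 0.061. Cplx2 had no such close gene, its nearest being Ryr2, Fam19a1 and Jph1 at 0.16 to 0.17 where the median gene lay at 0.76.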
